A study of Homo sapiens with 4 samples.

Results

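The genes described here encode 10 enzymes and transporters of the epidermal lipid barrier: ALOX12B, ALOXE3, ABCA12, CERS3, ELOVL4, ELOVL7, FA2H, SULT2B1, CYP4F22 and UGCG. They were chosen by name for this role and not by their values, but with earlier results of these data known. Every gene probe whose transcript belongs to one of these genes was taken, which gave 11 of the 34127 gene probes of the array. Of the 10 genes, 9 were detected well enough to be tested, among 19550 genes tested in all.

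The cells were Ca9-22, an established line of human gingival squamous cell carcinoma grown in DMEM with fetal bovine serum. RNA was taken 3 days after transfection from 2 negative control cultures and from 2 cultures with KPNA4 knockdown, and each was read with 1 dye on 1 array, with all 4 arrays on the same slide and from the same scan. KPNA4 encodes an importin alpha, an adaptor that carries cargo proteins into the nucleus. The study asked what the loss of KPNA4 does to gene expression in these cells, including genes of epidermal differentiation. The labels give siRNA as the silencing reagent, whereas the study describes a profile of Ca9-22 cells that express a short hairpin RNA, and which reagent each knockdown culture received was not settled here. The series' design text calls the replicates biological, and nothing further is said of how far apart the cultures were handled.

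The outer epidermis holds its water with sheets of lipid between dead, flattened keratinocytes. ELOVL enzymes lengthen fatty acids to very long chains, CERS3 joins such chains to a sphingoid base to make ceramides, FA2H and CYP4F22 add hydroxyl groups to the acyl chain, UGCG adds glucose, and ABCA12 loads the glucosylceramide into lamellar bodies for export. ALOX12B and ALOXE3 then oxidize the linoleate end of these ceramides in sequence so that the lipid can be fixed to the cornified envelope, while SULT2B1 makes cholesterol sulfate. Inherited loss of most of these enzymes causes ichthyosis, a scaling disorder of the skin.

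Promoters are shown for the 3 genes that were higher after knockdown and for the pair of epidermal lipoxygenases, whose genes lie close together on chromosome 17 and differed in response. Each is a RefSeq window of 300 bases on GRCh38.p14, from 250 before the annotated start to 50 after it, written 5′ to 3′ on the gene's own strand. Capitals mark every match to 6 short motifs, searched on both strands, and none of the marked matches overlap. The AP-1 motif was searched as TGANTCA. The Grainyhead motif, part of the site bound by GRHL factors, was searched as AACCGG. The box bound by KLF factors was searched as CCACCC. The CCAAT box was searched by those letters, the TATA box by its usual letters TATAAA, and the E-box by its palindrome CACGTG. The motifs were chosen with earlier results on these arrays known. Positions count from 1 at the annotated start, with negative numbers before it, and give the first base of a match.
SULT2B1, chr19:48551922-48552221, plus strand: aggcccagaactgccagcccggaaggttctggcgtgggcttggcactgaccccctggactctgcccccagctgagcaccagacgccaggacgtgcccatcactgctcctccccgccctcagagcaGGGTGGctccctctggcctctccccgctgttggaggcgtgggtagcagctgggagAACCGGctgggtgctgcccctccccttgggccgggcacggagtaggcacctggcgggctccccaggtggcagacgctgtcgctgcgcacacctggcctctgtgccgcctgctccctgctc
ABCA12, first start, chr2:215138577-215138876, minus strand: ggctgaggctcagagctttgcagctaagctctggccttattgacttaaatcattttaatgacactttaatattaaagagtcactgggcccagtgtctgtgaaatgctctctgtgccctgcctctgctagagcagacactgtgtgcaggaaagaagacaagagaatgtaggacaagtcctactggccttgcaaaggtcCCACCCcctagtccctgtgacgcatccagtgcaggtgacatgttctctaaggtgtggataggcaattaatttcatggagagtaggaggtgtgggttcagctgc
ELOVL4, chr6:79947504-79947803, minus strand: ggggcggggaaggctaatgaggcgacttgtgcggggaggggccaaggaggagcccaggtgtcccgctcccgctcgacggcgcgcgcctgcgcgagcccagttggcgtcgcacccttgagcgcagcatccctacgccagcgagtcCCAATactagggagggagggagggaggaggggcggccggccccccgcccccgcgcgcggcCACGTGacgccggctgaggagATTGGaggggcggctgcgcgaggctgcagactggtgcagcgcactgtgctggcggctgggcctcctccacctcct
ALOXE3, first start, chr17:8118867-8119166, minus strand: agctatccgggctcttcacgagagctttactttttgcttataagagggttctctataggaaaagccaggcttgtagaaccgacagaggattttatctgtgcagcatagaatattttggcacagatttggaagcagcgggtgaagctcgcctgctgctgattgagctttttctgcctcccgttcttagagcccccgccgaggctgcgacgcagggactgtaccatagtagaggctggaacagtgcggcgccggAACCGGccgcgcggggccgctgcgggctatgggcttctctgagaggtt
ALOXE3, second start, chr17:8118465-8118764, minus strand: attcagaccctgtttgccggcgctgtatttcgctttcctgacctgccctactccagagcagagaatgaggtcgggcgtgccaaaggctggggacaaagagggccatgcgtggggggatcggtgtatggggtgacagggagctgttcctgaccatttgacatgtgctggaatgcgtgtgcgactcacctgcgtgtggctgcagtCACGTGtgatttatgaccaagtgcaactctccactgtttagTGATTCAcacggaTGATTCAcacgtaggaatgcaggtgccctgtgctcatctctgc
ALOX12B, chr17:8087667-8087966, minus strand: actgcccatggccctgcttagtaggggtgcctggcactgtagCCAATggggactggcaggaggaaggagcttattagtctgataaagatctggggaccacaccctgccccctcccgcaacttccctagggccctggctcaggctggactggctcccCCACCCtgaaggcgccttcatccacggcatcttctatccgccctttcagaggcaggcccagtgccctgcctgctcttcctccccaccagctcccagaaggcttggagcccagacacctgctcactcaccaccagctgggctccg

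All 10 genes matched the promoter table, which holds 35116 windows. The SULT2B1 window held a Grainyhead motif at position -70 from the start and a CACCC box at -125, and the first ABCA12 window a CACCC box at -53. The second ABCA12 window, not shown, held no CACCC box, and had a CCAAT box at -176, an E-box at -152 and a TATA box at 7. The ELOVL4 window held CCAAT boxes at -106 and -25 and an E-box at -46. The first ALOXE3 window held a Grainyhead motif at 3, and the second held 2 AP-1 motifs, at -6 and 8, with an E-box at -47. ALOX12B had a CACCC box at -94 and a CCAAT box at -208. The UGCG window, not shown, also held a Grainyhead motif, at -12. Over all windows, 7.71% held the AP-1 motif, 7.23% the Grainyhead motif, 34.3% the CACCC box, 34.6% the CCAAT box, 11.5% the TATA box and 7.26% the E-box. Among the 10 genes the AP-1 letters were found in ALOXE3 windows alone. The windows also differed in composition: 48.7% of the bases of the first ABCA12 window were G or C, against 70.7% for SULT2B1, 73.7% for ELOVL4 and a median of 58.7% over all windows. In that ABCA12 window CpG was at 0.0568 of the frequency expected from its bases, lower than in all but 4.82% of windows. A match is a run of letters, and whether any factor bound there was not measured.

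Signals below are log2 of the scanner's processed signal minus the 75th percentile of the array, so a value of 0 is a probe as bright as that percentile. Because brightness depends on the probe, levels of these genes were compared between arrays and not with each other. KPNA4 itself was at 4.02 and 4.03 on the control arrays and at 2.36 and 2.05 on the knockdown arrays, a log2 difference of -1.82 (standard error 0.12, limma adjusted p = 0.00183). The 75th percentile was brighter on the knockdown arrays, at signals of 1938 and 2096 against 1466 and 1381, and the scaling removes that difference. The median log2 difference of all genes tested was -0.10 with scaling and 0.40 without it. Changes near this gap therefore depend on the scaling, and both values are given where they matter. Of all genes tested, 20.3% were called higher after knockdown and 29.5% lower, at a limma adjusted p under 0.05, whereas without scaling 91.5% of the called genes were higher.

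SULT2B1 and ABCA12 rose several-fold after KPNA4 knockdown and ELOVL4 rose by less. ALOXE3 fell by more than 2-fold with scaling and by less than 2-fold without it. CERS3, ELOVL7 and UGCG fell by smaller amounts, for which no call was made without scaling. ALOX12B and FA2H did not pass the test, and CYP4F22 was not detected on any array. The counts were thus 3 higher and 4 lower of 9 genes tested, beside 20.3% and 29.5% of all genes and 49.8% of all genes called in either direction, and 2 higher and 1 lower at 2-fold or more, beside 5.27% and 3.23% of all genes. The median log2 difference of the 9 genes was 0.08, against -0.10 for all genes. Both knockdown arrays lay above both controls for 5 of the 9 genes and below them for 4, beside 31.7% and 48.1% of all genes. Without scaling, 5 were called higher and 1 lower. In bulk RNA, fewer cells that express a gene and less RNA per cell cannot be told apart.

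**Figure D1:**
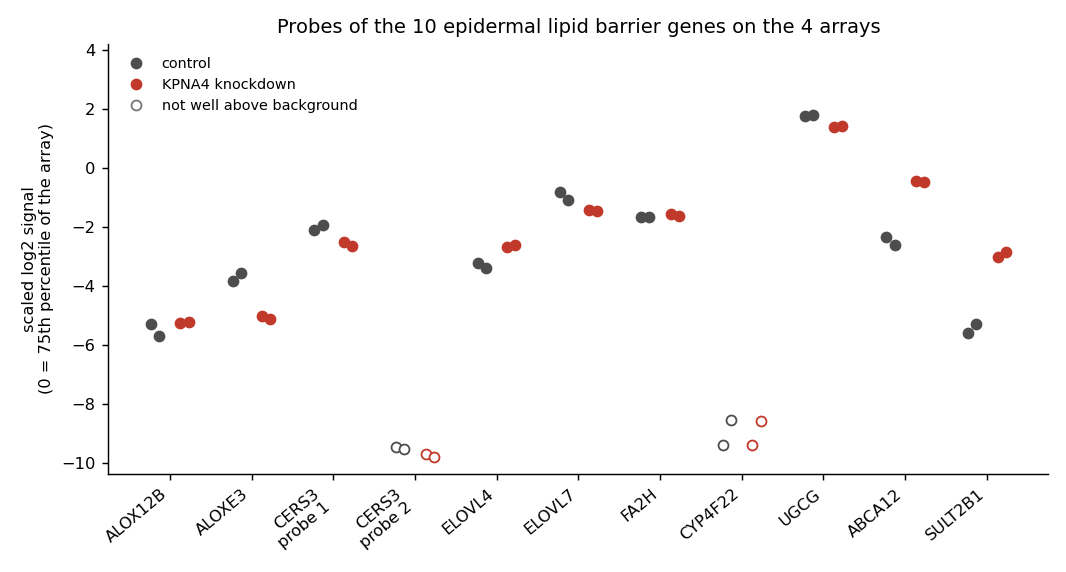
Scaled log2 signal (vertical axis, 0 at the array's 75th percentile) of the 11 probes of the 10 genes on the 2 control arrays (gray) and the 2 KPNA4 knockdown arrays (red), one point per array, with open points for signals not well above background. SULT2B1 and ABCA12 stand higher on both knockdown arrays, ALOXE3 stands lower, and CYP4F22 and the second CERS3 probe stay at background.

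Among the lipoxygenases, ALOX12B makes the hydroperoxide and ALOXE3 converts it to a hepoxilin-like epoxyalcohol. ALOXE3 was at -3.82 and -3.58 on the control arrays and at -5.02 and -5.11 on the knockdown arrays, and the groups did not overlap. The log2 difference was -1.37 (standard error 0.10, adjusted p = 0.00248), a 2.58-fold lower signal. Without scaling it was -0.86, and with normexp background correction without spots in bright surroundings -0.91, both under 2-fold and still past the threshold. ALOX12B was dim, at -5.31 and -5.72 in the controls and at -5.26 and -5.23 after knockdown. Its control arrays lay further apart than control and knockdown means did. The log2 difference of ALOX12B was 0.26, with a 95% interval from -0.16 to 0.69 and an adjusted p of 0.22. Leaving out control replicate 1 raised it to 0.47 (adjusted p = 0.0236), leaving out control replicate 2 lowered it to 0.06 (adjusted p = 0.466), and without scaling it was 0.77 (adjusted p = 0.00389). With normexp background correction without spots in bright surroundings it was 0.0079 (adjusted p = 0.948). Within an array the difference of both genes is free of the scaling: ALOXE3 minus ALOX12B was 1.49 and 2.14 in the controls and 0.24 and 0.13 after knockdown, a change of -1.63. An exact two-sided permutation test of that change over the 4 arrays gave p = 0.333, the smallest that 2 arrays against 2 allow. On chromosome 17 the annotation places 2 other genes between them, and the nearest tested gene on the far side of ALOX12B is ALOX15B, another lipoxygenase, at 0.27 (adjusted p = 0.143).

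For ceramide synthesis, CERS3 was read by 2 probes. The brighter CERS3 probe was at -2.10 and -1.94 in the controls and at -2.50 and -2.66 after knockdown, and the other was not well above background on any of the 4 arrays. The brighter probe gave a log2 difference of -0.56 (standard error 0.10, adjusted p = 0.0143), in which both knockdown arrays lay below both controls. Before scaling its signals were 342 and 360 in the controls and 343 and 331 after knockdown, a log2 difference of -0.06 (adjusted p = 0.646). The CERS3 call was also lost without KPNA4 knockdown replicate 2 (adjusted p = 0.0668). UGCG, the ceramide glucosyltransferase, was bright on every array, at 1.77 and 1.80 in the controls and 1.39 and 1.43 after knockdown. Its log2 difference was -0.37 (standard error 0.06, adjusted p = 0.0108), a small shift with no overlap between the groups. Without scaling UGCG was at 0.13 (adjusted p = 0.354), and without KPNA4 knockdown replicate 1 or 2 the adjusted p was 0.0762 or 0.0682. FA2H, the fatty acid 2-hydroxylase, was at -1.67 and -1.68 in the controls and at -1.58 and -1.62 after knockdown. The FA2H difference of 0.08 had a 95% interval from -0.08 to 0.23 (adjusted p = 0.322), and it was called higher without scaling, at 0.58 (adjusted p = 0.00222).

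The elongases moved in opposite directions. ELOVL4, which makes the ultra-long chains found in skin ceramides, was at -3.23 and -3.40 in the controls and at -2.67 and -2.62 after knockdown. Both knockdown arrays lay above both controls, with a log2 difference of 0.67 (standard error 0.08, adjusted p = 0.00697), a 1.59-fold rise. With normexp background correction without spots in bright surroundings the ELOVL4 difference was smaller, at 0.33 (adjusted p = 0.00659). ELOVL7, which elongates saturated fatty acids, was at -0.81 and -1.09 in the controls and at -1.43 and -1.47 after knockdown. Its log2 difference was -0.50 (standard error 0.11, adjusted p = 0.0274), and it was 0.00 without scaling (adjusted p = 0.98). The ELOVL7 call was also lost without KPNA4 knockdown replicate 1 (adjusted p = 0.0865), without KPNA4 knockdown replicate 2 (adjusted p = 0.107) and with no filter on dim probes (adjusted p = 0.0665). Taken within each array, ELOVL4 minus ELOVL7 was -2.42 and -2.31 in the controls and -1.25 and -1.15 after knockdown, a change of 1.16 (exact two-sided permutation p = 0.333, again the smallest possible). CYP4F22, the ultra-long chain omega-hydroxylase that acts after ELOVL4, had signals of 2.19 and 3.73 in the controls and 2.91 and 5.42 after knockdown. None of these was well above background, so CYP4F22 was not tested.

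ABCA12 carries glucosylceramides into lamellar bodies. It was at -2.34 and -2.60 on the control arrays and at -0.44 and -0.49 on the knockdown arrays. The groups were well apart, with a log2 difference of 2.00 (standard error 0.11, 95% interval 1.70 to 2.30, adjusted p = 0.00131), a 4.01-fold rise, and 1.9% of all genes tested had a higher fitted value. SULT2B1, the cholesterol sulfotransferase, was at -5.59 and -5.30 in the controls and at -3.01 and -2.86 after knockdown. Its signals before scaling were 30.4 and 35.0 in the controls and 240 and 288 after knockdown, and the scaled log2 difference was 2.51 (standard error 0.13, 95% interval 2.16 to 2.86, adjusted p = 0.00113). That was a 5.69-fold rise. Across the alternatives other than the plain normexp correction, ABCA12 ran from 1.73 to 2.51 and SULT2B1 from 1.32 to 3.01, and both remained past the threshold in each.

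**Figure D2:**
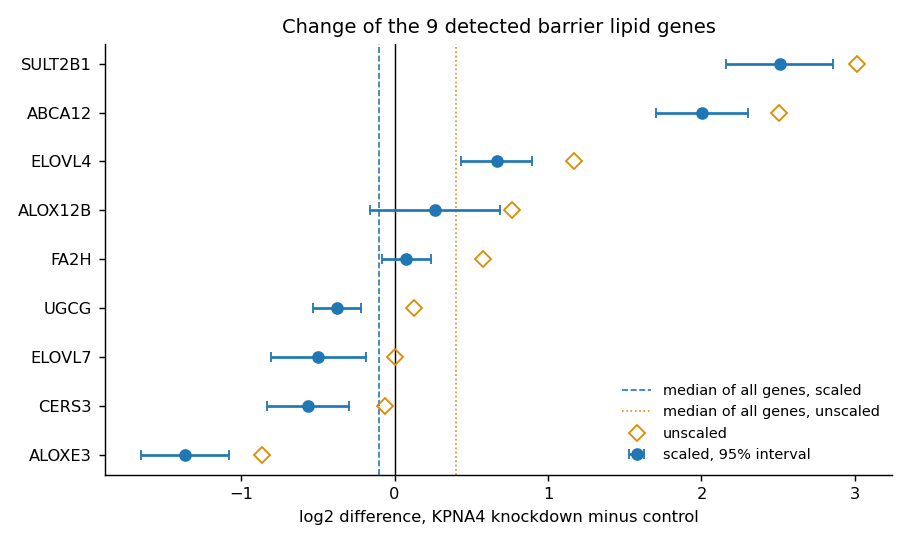
Log2 difference between KPNA4 knockdown and control (horizontal axis) for the 9 tested genes, with 95% intervals for the scaled signals (circles) and the values without scaling (diamonds). Dashed and dotted lines are the medians of all genes, -0.10 and 0.40. SULT2B1, ABCA12 and ELOVL4 lie above 0 and ALOXE3 below it either way, while ELOVL7, CERS3 and UGCG reach 0 without scaling.

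The paralogs of these enzymes held genes of both directions in the ELOVL and CERS families. Beside the counts given here for each family, 20.3% of all genes were called higher and 29.5% lower. Of the 4 other ELOVL genes tested, 1 was higher and 2 were lower. ELOVL5 had a log2 difference of 0.56 (adjusted p = 0.00614), ELOVL2 one of -0.89 (adjusted p = 0.0124) and ELOVL1 one of -0.45 (adjusted p = 0.0184). A second ELOVL5 probe gave -0.16, so its probes disagreed, and ELOVL1 was at 0.05 without scaling. ELOVL1 lost its call without either knockdown array (adjusted p 0.0846 and 0.0762). Of the 5 other ceramide synthases, 2 were higher, CERS1 by 1.35 (adjusted p = 0.00207) and CERS4 by 0.64 (adjusted p = 0.00784), and 1 was lower, CERS2 at -0.34 (adjusted p = 0.0237). CERS1 shares its transcript with GDF1. CERS2 was at 0.16 without scaling, and its call was lost without either knockdown array (adjusted p 0.101 and 0.12). The brighter CERS6 probe gave 0.16 and the other -0.61, the latter past the threshold, so the direction of CERS6 was unclear. Among the other lipoxygenases, ALOX5 and ALOX12 were too dim to test, and ALOX15 was higher by 0.67 (adjusted p = 0.0138), with 0.17 from its second probe. The ALOX15 call was lost without KPNA4 knockdown replicate 1 (adjusted p = 0.0582) or KPNA4 knockdown replicate 2 (adjusted p = 0.0559).

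In the CYP4F family 5 of 5 tested relatives of CYP4F22 were called higher after knockdown, beside 20.3% of all genes. With normexp background correction without spots in bright surroundings 2 of the 5, CYP4F11 and CYP4F12, were still called. CYP4F11, which metabolizes fatty acids and vitamin K, rose by 1.52 (adjusted p = 0.000689), with scaled values of -3.89 and -3.86 in the controls and -2.34 and -2.37 after knockdown. CYP4F2 and CYP4F3, which inactivate leukotriene B4, were dim in both controls and passed the background test on both knockdown arrays, at least 2.22-fold and at least 1.22-fold higher. Both bounds are small, and with that correction their values turned to -0.09 and -0.06. A second CYP4F2 probe was not well above background on any of the 4 arrays. CYP4F genes are close in sequence, and probes of one may take up transcript of another. The next tested gene to CYP4F22 on one side of chromosome 19, CYP4F8, rose by 0.33 (adjusted p = 0.0214), or 0.13 with that correction (adjusted p = 0.139), and with the replicate number as a block its adjusted p was 0.0533.

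**Figure D3:**
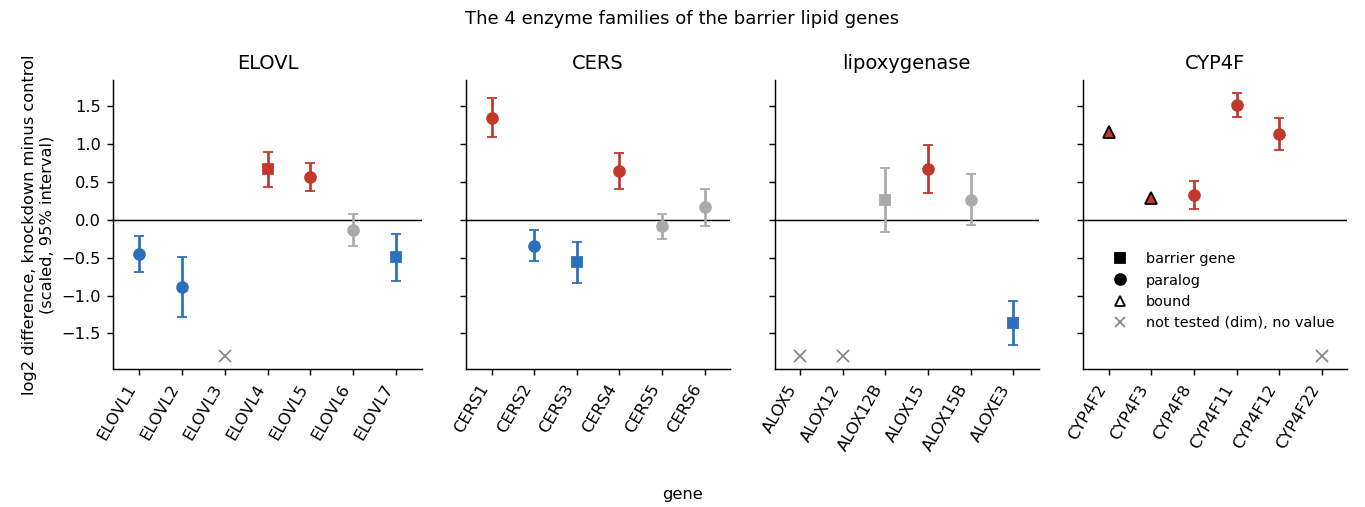
Log2 difference between KPNA4 knockdown and control (vertical axis, 95% intervals) for each member of the ELOVL, CERS, lipoxygenase and CYP4F families, with squares for the barrier genes and circles for their paralogs; red is called higher, blue lower, gray not called. Triangles are lower bounds for genes dim in the controls, and crosses at the bottom edge mark genes too dim to test. All 5 tested paralogs in the CYP4F panel lie above 0, and the other panels hold both directions or uncalled genes.

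Of 73 other genes of epidermal lipid metabolism, in 5 lists, 65 were tested, with 21 higher and 16 lower, and 9 higher and 2 lower at 2-fold or more. Beside them, 20.3% of all genes were higher and 29.5% lower, and 5.27% and 3.23% at 2-fold or more. Their median was 0.04, against -0.10 for all genes. Without scaling, which moves every gene up alike, 46 were higher and 3 lower, and 6 of the 16 called lower with scaling stayed below 0. With either knockdown array left out, 6 of these genes were called lower.

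In ceramide synthesis, 4 of 16 genes were higher and 4 lower, shares near the 20.3% and 29.5% of all genes. SPTLC3, a catalytic subunit of serine palmitoyltransferase that makes sphingoid bases of unusual chain length, was read by 3 probes, each dim on both control arrays and well above background on both knockdown arrays. Its brightest probe was at -9.36 and -9.60 in the controls and at -4.36 and -4.27 after knockdown, at least 8.36-fold higher, and the other probes were at least 2.34-fold and 1.98-fold higher. The fit of that probe had an adjusted p of 0.000309. With normexp background correction without spots in bright surroundings its log2 difference was 0.95, under that bound. DEGS1, the desaturase that completes the ceramide base, was lower, at -0.72 (adjusted p = 0.00544), or -0.22 without scaling (adjusted p = 0.179). Of 19 tested genes that lengthen, desaturate or hydroxylate fatty acids, 8 were higher and 5 lower, beside the same 20.3% and 29.5% of all genes. The CYP4F genes were 5 of those 8.

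In the list of glucosylceramide and lamellar body genes, 5 of 21 were higher and 5 lower, again near the 20.3% and 29.5% of all genes. ST3GAL5, which makes the ganglioside GM3 from lactosylceramide and so draws on the product of UGCG, was at -4.93 on both control arrays and at -2.77 and -2.66 after knockdown, higher by 2.21 (adjusted p = 0.000484). ABCA1, a cholesterol exporter related to ABCA12, rose by 1.70 (adjusted p = 0.000965), with 0.64 from its second probe. PLA2G2F, a secreted phospholipase of the upper epidermis, was at -3.55 and -3.68 in the controls and not well above background on either knockdown array, at least 16.4-fold lower. With normexp background correction without spots in bright surroundings its log2 difference was -1.61, smaller than that bound.

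Of 6 tested genes around the lipoxygenases and the lipid envelope, 3 were higher and 1, ABHD5, was lower, at -0.32 (adjusted p = 0.0155), or 0.19 without scaling. Beside the counts in this paragraph, 20.3% of all genes were called higher and 29.5% lower. TGM1, the transglutaminase that fixes proteins and lipids to the cornified envelope, was at -2.88 and -3.17 in the controls and at -1.62 and -1.29 after knockdown, a rise of 1.57 (adjusted p = 0.00465). EPHX2, an epoxide hydrolase, rose by 0.80 (adjusted p = 0.00284). PNPLA1 and SDR9C7, which act before and after the lipoxygenase steps in this pathway, were too dim to test. Beside SULT2B1, of 3 tested genes of cholesterol sulfate turnover, 1 was higher and 1 lower: the sulfatase STS, which removes the sulfate, at 0.62 (adjusted p = 0.0185), and PAPSS2, which makes the sulfate donor, at -0.24 (adjusted p = 0.0496). PAPSS2 kept its direction and call in 5 of 15 alternatives, lost the call in 9 and changed sign in 1. STS lost its call without KPNA4 knockdown replicate 1 or KPNA4 knockdown replicate 2. The STS call was also lost with normexp background correction without spots in bright surroundings, at 0.18 (adjusted p = 0.136). PAPSS2 was at 0.26 without scaling.

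**Figure D4:**
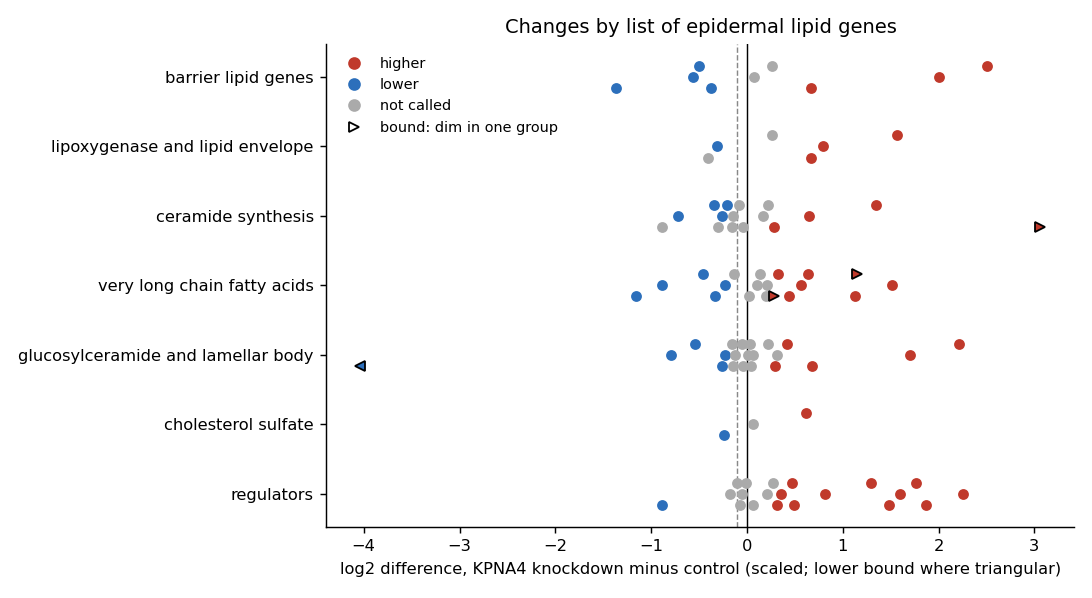
Log2 difference between KPNA4 knockdown and control (horizontal axis, scaled) of each tested gene, one point per gene, in the barrier lipid genes, the 5 other lipid lists and the regulators (rows), with red for called higher, blue for lower and gray for not called. Triangles are bounds for genes dim in 1 group, and the dashed line is the median of all genes, -0.10. The regulators hold 11 red points and 1 blue one, and the lipid lists hold points on both sides of 0.

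Transcription factors known to act on barrier genes were mostly higher where they were called, with 11 higher and 1 lower of 20 tested and a median of 0.34, against 20.3% higher and 29.5% lower of all genes. This list was chosen with earlier results of these data known, so the counts describe these genes only. CEBPA, a differentiation factor of keratinocytes, rose by 2.26 (adjusted p = 0.000409), from -2.49 and -2.44 to -0.23 and -0.18. OVOL1 rose by 1.76 (adjusted p = 0.000725). SREBF1, which drives genes of fatty acid synthesis, rose by 1.87 (adjusted p = 0.00128) on its bright probe, while its second, dimmer probe fell by 0.35 (adjusted p = 0.0422). The lower regulator was VDR, the vitamin D receptor, at -0.89 (adjusted p = 0.00182). Of the Grainyhead factors, named after their values were seen because of the Grainyhead motifs above, GRHL3 rose by 1.60 (adjusted p = 0.00128) and GRHL1 by 1.30 (adjusted p = 0.000965), with 0.23 from the second GRHL1 probe. GRHL2 was not called, at 0.20 (adjusted p = 0.0542), with 0.34 from its second probe. KLF4, also named later because of the CACCC boxes above, was not called either, at -0.10 (adjusted p = 0.372). The second GRHL3 probe, well above background on 1 control array only and not tested, was at -6.64 and -7.26 in the controls and at -7.54 and -7.50 after knockdown. GATA3 and PPARG were too dim to test.

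**Figure D5:**
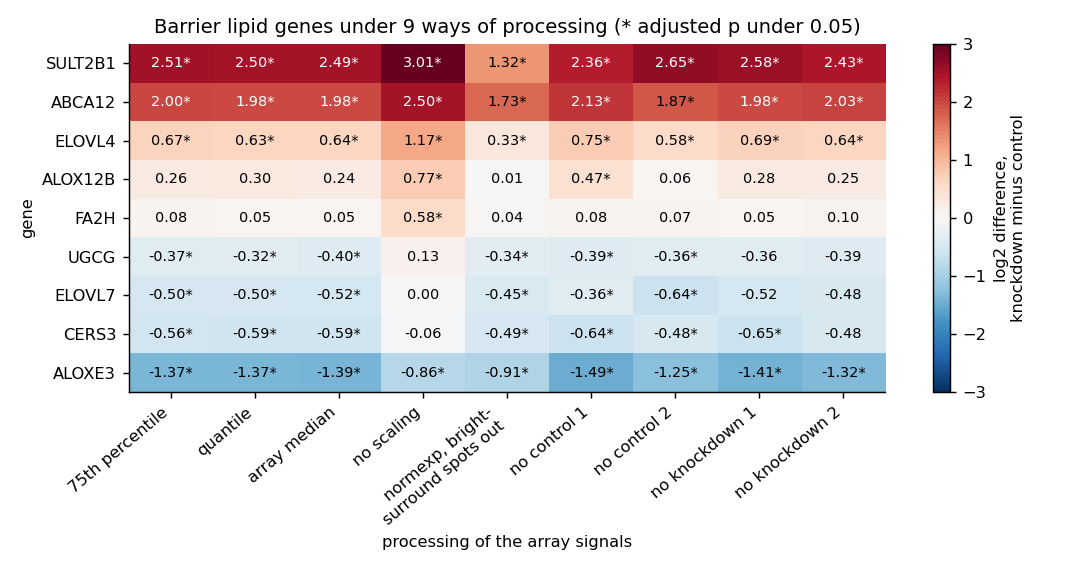
Log2 difference between KPNA4 knockdown and control (color and printed value) for the 9 tested genes (vertical axis) under 9 ways of processing the signals (horizontal axis), with a star for an adjusted p under 0.05. The rows of SULT2B1, ABCA12, ELOVL4 and ALOXE3 keep their sign and star across the 9 columns, and those of ELOVL7, CERS3 and UGCG lose their star without scaling and without at least 1 knockdown array.

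The labelled cell type was checked with marker genes. All 9 squamous keratinocyte markers were well above background on every array, with SFN, an epithelial cell cycle protein, the brightest. Of the 9, 7 were called higher, 6 of them by 2-fold or more, and 1, SFN, was lower, at -0.28 (adjusted p = 0.0287). The median log2 difference of the 9 was 1.38. SFN changed sign without scaling, at 0.23 (adjusted p = 0.102), and with quantile normalization, at 0.14 (adjusted p = 0.112). Beside the counts in this and the other marker lists, 20.3% of all genes were called higher and 29.5% lower. At 2-fold or more these shares were 5.27% and 3.23%. KRT6A, a keratin of activated keratinocytes, had a log2 difference of 6.94 (adjusted p = 0.000178). The summed level of the list, in units of the 75th percentile and nearly all of it from SFN, was 194 on both control arrays and 186 and 178 after knockdown. Its direction thus depends on the scaling, as that of SFN does. Among 8 markers of differentiated keratinocytes, 2 were higher and 2 lower of 7 tested. The higher ones were IVL, at 1.48 (adjusted p = 0.00209), and KRT1, dim in the controls and at least 5.15-fold higher (a log2 difference of 0.60 with normexp background correction without spots in bright surroundings). The lower ones were CNFN, at -0.76 (adjusted p = 0.0136), and FLG, dim on both knockdown arrays and at least 1.62-fold lower. Without scaling CNFN was at -0.26 (adjusted p = 0.134). With normexp background correction without spots in bright surroundings FLG had a log2 difference of -0.47, smaller than its bound of -0.70. The other FLG probes were not well above background on any array. KRT10 was the brightest, with a difference of 0.17 (adjusted p = 0.0729), and LORICRIN was not detected on any array. Beside SULT2B1 and FA2H, which sebaceous glands and myelin-forming cells also express, the markers of those cells were read. Of 10 sebocyte markers, 6 were not detected on any array, and the sum was 2.50 to 2.64 in the controls and 2.45 to 2.51 after knockdown, with GAL the brightest. The sum over the Schwann cell and oligodendrocyte markers was 2.92 to 2.97 in the controls and 2.88 to 2.97 after knockdown, with PMP22 the brightest. Of 5 tested fibroblast markers, 3 were higher and 1 lower: COL1A1 at 1.62, COL1A2 at 1.24 and PDGFRB at 0.56 (adjusted p 0.00128, 0.000969 and 0.0335), and LUM, dim on both knockdown arrays, at least 1.49-fold lower. PDGFRB was not well above background on control replicate 1, and its call was lost with the replicate number as a block (adjusted p = 0.0545). With normexp background correction without spots in bright surroundings PDGFRB was called lower, at -0.30 (adjusted p = 0.0249), so its direction was unclear. The sum was 0.143 to 0.147 in the controls and 0.330 to 0.345 after knockdown, with COL1A2 the brightest and COL3A1 not detected. The leukocyte sum was 4.16 to 4.22 in the controls and 5.86 to 6.20 after knockdown, nearly all of it from CD14, which was called higher, and 2 of the other 3 tested markers were called lower. The melanocyte sum was 0.156 to 0.171 in the controls and 0.170 to 0.176 after knockdown, with PMEL the brightest and TYR not detected. The endothelial sum was 0.0888 to 0.0958 and 0.0636 to 0.0671, with CDH5 the brightest and PECAM1 not detected. Both tested endothelial markers, VWF and CDH5, were called lower, at -0.53 and -0.48 (adjusted p 0.0113 and 0.0207). Without scaling VWF and CDH5 were at -0.02 and 0.02 (adjusted p 0.872 and 0.896). The part of the fibroblast and leukocyte signals in the changes above was not tested.

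The groups also differed in the signal of HLA-DRB5 and GSTM1, genes whose presence depends on the genome of a line. HLA-DRB5, an antigen-presenting gene carried by some people only, was dim on both control arrays and at -4.83 and -4.80 after knockdown, at least 5.90-fold higher. GSTM1, a gene that many people lack, was at -7.62 and -7.87 in the controls and at -6.71 and -6.72 after knockdown, a low signal. It was at least 1.59-fold higher. Of all 19550 genes tested, 312 were dim on both control arrays and 243 on both knockdown arrays. Whether HLA-DRB5 and GSTM1 differed in presence or in expression was not tested. Whether control and knockdown cultures were the same in their genome was not tested, and for each change above group and culture cannot be told apart.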

How the data were processed

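Ca9-22 RNA from 2 control and 2 KPNA4 knockdown cultures was measured on Agilent 1-color human arrays. The authors deposited the Feature Extraction 11.0.1.1 output of each array, whose processed signal is an intensity after background subtraction and removal of spatial trends, and a table found to hold the same signal as a ratio to the 75th percentile of each array. Here log2 of the processed signal minus the array's 75th percentile was used. Controls and the 333 to 355 of 43118 gene spots that each array flagged as outliers were dropped, replicate spots were averaged, and no gene spot was saturated. A gene entered if a probe was well above background on both control or both knockdown arrays, which 70.2% to 71.0% of probes on each array were, and the brightest probe stood for a gene. The number of arrays, 2 per group, limits the precision. Names came from a RefSeq table of GRCh38.p14, which matched 25771 of 34127 probes, while the arrays' grid uses another assembly, so no probe coordinates are given.

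Groups followed the labels. They were tested using lmFit and eBayes of limma 3.58.1 (R 4.3.3) with Benjamini-Hochberg adjustment over all 19550 genes and a threshold of 0.05. The p-values measure the spread between these cultures. A gene dim on all arrays of a group got a bound: the bright group's mean against, for each dim array, the higher of the probe's own signal and the lowest signal well above background. The genes named are the 10 chosen genes, KPNA4, the 3 called genes with the largest change in each list and paralog family, and the brightest marker of each list, with others said to be chosen later or falling in a count of 5 or fewer. The members and lists were chosen with earlier results of these data known. Some marker genes are not reported here. The procedure was tested on simulated data. Alternatives were other scalings, normexp background correction (on the median and local background intensity, offset 50), the deposited table, other filters and probe rules, limma's trend and robust options, a replicate block and each array left out. One of the 16 was added after the data were seen: normexp without spots whose local background was over 100.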

Additional observations from a re-analysis of the deposited data

How the results depend on the processing

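SULT2B1, ABCA12, ELOVL4 and ALOXE3 kept their direction and their call in 14 of 15 alternatives, the exception being plain normexp, and the count of genes past the threshold moved with the scaling more than with any filter. Without scaling between arrays, 11257 genes were higher and 1048 lower, against 3973 and 5766 with it. In the same fit 5 of the barrier lipid genes were higher and 1 lower, 46 of the other lipid genes were higher and 3 lower, 19 regulators were higher, and the median of the barrier lipid genes was 0.58. ELOVL7 (0.00429), UGCG (0.13), PAPSS2 (0.26), ELOVL1 (0.0475) and CERS2 (0.16) turned from lower to slightly higher there, each short of the threshold.

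Plain normexp called 0 genes in either direction with limma at an adjusted p under 0.05, and at an unadjusted p under 0.05 it had 641 higher and 524 lower. It thus called 0 barrier lipid genes, 0 other lipid genes and 0 regulators in either direction (unadjusted, 2 and 0, 5 and 2, 7 and 1, higher and lower). KPNA4 was at -1.96 there (adjusted p = 0.651), the median of the barrier lipid genes at 0.49, and ALOXE3 (0.49), CERS3 (0.11), PLA2G2F (0.0546) and ELOVL2 (1.04) changed sign. On one knockdown array 12 spots had a local background over 100, the highest at 51625, against at most 59 on the other arrays. With such spots left out, an alternative chosen after seeing the data, 9118 genes were lower, 29.1% of called genes were higher, 2 regulators were lower, and CYP4F3 (-0.0632) and CYP4F2 (-0.0937) changed sign.

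Leaving out 1 array gave 2148 to 3596 genes higher and 2521 to 4746 lower, 1 to 4 barrier lipid genes lower and 6 to 11 other lipid genes lower. The falls were to 2204 higher and 3135 lower without KPNA4 knockdown replicate 1 and to 2148 and 2521 without KPNA4 knockdown replicate 2. Limma's trend and robust options called 2 regulators lower. At 2-fold or more, 1031 genes were higher and 632 lower, with 1 barrier lipid gene lower, 9 other lipid genes higher and 2 lower, and 6 regulators higher and 0 lower by limma (at an unadjusted p under 0.05 and any fold, 2 were lower). With the replicate number as a block (replicate block), 10 other lipid genes were lower in place of 16, while the counts of all genes and of barrier lipid genes stayed within 1.5 times. The deviations of same-numbered arrays from their group means had a correlation of -0.03 over genes. With 2 arrays per group this cannot tell whether same-numbered cultures were prepared together. Dim probes limit what can be read of CYP4F22 and ALOX12B.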
